A study of Mus musculus with 2 samples.

Results

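The genes described here encode the subunits of the AMPA and kainate receptors, the fast glutamate-gated channels of the brain. They were taken by symbol, and all 9 were found once each among the 55450 genes of the tables: the AMPA subunits *Gria1* to *Gria4* and the kainate subunits *Grik1* to *Grik5*. Their UMIs (unique molecular identifiers, each standing for 1 captured RNA molecule) were counted in 2 single-cell libraries of the cerebral cortex of C57BL/6 mice, 1 control and 1 with cerebral white matter injury (WMI). The sample labels describe ligation of the right common carotid artery on postnatal day 7 under 1 h of hypoxia. The cortex of the ligated side, and of the same side in the control group, was taken on postnatal day 14, when the mice were 2 weeks old. The same treatment text stands in the labels of both libraries, and it does not say whether the control mice had sham surgery or hypoxia. The paper gives an earlier age, a longer hypoxia and several replicates per group. The titles of both libraries read scRNAseq, whereas the text of the labels describes nuclei and the paper dissociated cells. A cell below therefore means a barcode, which may hold a nucleus. The samples analysed here comprise 1 library per group.

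AMPA receptors are assemblies of the GluA subunits and carry most fast excitatory transmission. A receptor that holds edited GluA2 passes little calcium, whereas receptors without it pass calcium, and this difference is known for its part in the vulnerability of immature oligodendrocytes (OLs) to ischemia. Kainate receptors need a low-affinity subunit (GluK1, GluK2 or GluK3), which can form channels alone, and the high-affinity subunits GluK4 and GluK5 work only together with them. Oligodendrocyte precursor cells (OPCs) carry both receptor families, receive synapses from neurons, and mature through premyelinating OLs (pre-OLs) into myelinating OLs.

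The site that sets calcium permeability lies in the pore loop, where the genome encodes glutamine and RNA editing can recode it to arginine in GluA2, GluK1 and GluK2. The stretches around this codon are shown for the AMPA subunits and for the edited kainate subunits, because they show how alike the genes are at the position that separates them in function. They are the coding strand of GENCODE M21 transcripts, with the codon of the site in capitals and coordinates on GRCm38.
*Gria1*, exon 11, chr11:57243082-57243108, plus strand: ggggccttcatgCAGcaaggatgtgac
*Gria2*, exon 11, chr3:80706899-80706925, minus strand: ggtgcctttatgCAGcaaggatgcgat
*Gria3*, exon 11, chrX:41610253-41610279, plus strand: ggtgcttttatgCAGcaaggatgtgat
*Gria4*, exon 12, chr9:4464125-4464151, minus strand: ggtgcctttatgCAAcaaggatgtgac
*Grik1*, exon 13, chr16:87940538-87940556, minus strand: ggagctctcatgCAGcaag
*Grik2*, exon 12, chr10:49244325-49244343, minus strand: ggagctctcatgCAGcaag
Among the AMPA subunits, *Gria2* and *Gria3* were identical at 25 of the 27 bases and *Gria1* and *Gria2* at 23. *Grik1* and *Grik2* were identical at all 19 bases up to the end of the exon. The codon stood for glutamine in each of the 9 genes, and *Gria4* was the member with CAA in place of CAG. The tables count UMIs per gene, so they hold no information on which of these sites was edited.

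The genes lie apart in the genome, on chromosome 11 (*Gria1*, 57011387 to 57330244, plus strand), 3 (*Gria2*, 80681450 to 80802835, minus strand), X (*Gria3*, 41400854 to 41678601, plus strand) and 9 (*Gria4*, 4417896 to 4796234, minus strand). The kainate genes lie on chromosome 16 (*Grik1*, 87895900 to 88290265, minus strand), 10 (*Grik2*, 49094833 to 49788766, minus strand), 4 (*Grik3*, 125490700 to 125714173, plus strand), 9 (*Grik4*, 42518135 to 42944493, minus strand) and 7 (*Grik5*, 25009849 to 25072346, minus strand). No antisense gene overlapped any of the 9. *Grik2*, which spans 694 kb, overlapped 6 annotated genes on its own strand, and reads from them may not be told apart from *Grik2*.

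The control library held 66470806 UMIs in 10288 barcodes and the WMI library 60568639 in 8354, and 8755 and 7571 cells were kept, with medians of 4318 and 5048 UMIs. In kept cells the median share of mitochondrial UMIs was 0.061% in the control and 0.455% in the WMI library. There were 36 barcode sequences that occurred in both libraries. Clusters were named from marker lists and are called "-like" for that reason, and 29 of 32 clusters received a name. *Xist*, the RNA of the inactive X chromosome of females, was found in 0.0571% of control and 63.4% of WMI cells. A Y-linked UMI without an *Xist* UMI was found in 6513 control and 1959 WMI cells, so the WMI library may not be of 1 sex. The sex make-up thus differed between the libraries along with the condition. For 5 clusters, 1 library gave 90% or more of the cells. With 1 library per condition there was no replicate, no test was run, and every interval given is an exact 95% interval for counting error only, which leaves out the variation between mice.

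The OPC-like class held 306 control and 487 WMI cells (median 4909 and 4309 UMIs), and all 9 of its listed markers, among them *Pdgfra* and *Cspg4*, were enriched in it. Its median share of mitochondrial UMIs was 0.072% and 0.839%. The pre-OL-like class held 150 and 437 cells and carried 9 of 10 markers, led by *Bcas1* and *Enpp6*, and the mature OL-like class held 89 and 41 cells and carried all 12, such as *Mobp* and *Mog*. Astrocyte-like cells formed a cluster with little *Gfap* (cluster 7, 409 and 358 cells, 11 of 12 markers) and one led by *Gfap* and *A2m* (cluster 16, 79 and 249 cells, 9 of 12 markers). Neurons were read in 8 named subtypes and in neuroblast-like cells. The 9 members and their 30 listed partners were kept out of the features used for clustering, so the classes were not built on them.

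Free RNA from broken cells also enters droplets, and microglia-like cells gave the level to set against it. Whether microglia-like cells hold RNA of these genes of their own was not tested. The microglia-like cluster used for this (cluster 11) had 418 control and 151 WMI cells, with medians of 3102.5 and 3954 UMIs. A level is given below as CPM, the UMIs of the gene in every 1000000 UMIs of the class, with its 95% interval in parentheses. Values of different genes are not set against each other, because capture differs between genes. In these microglia-like cells *Gria2* stood at 1164 (1107 to 1223) in the control and 675 (612 to 743) in the WMI library. *Grik4* stood at 55.9 (44.02 to 69.9) in the control and 33.9 (20.96 to 51.8) in the WMI library. The summed level of 8 markers of excitatory neurons was 1049 and 645 in the same cells against 1864 and 1736 in excitatory neuron-like cells, so that neuronal RNA was abundant in this background. By point value, all 9 members were lower in this cluster in the WMI library. Background in the WMI library depended on the cells taken for it. Another microglia-like cluster (cluster 8) had 8 control and 717 WMI cells with a WMI median of 1951 UMIs. In its WMI cells *Gria2* stood at 1443 (1384 to 1503) and *Grik4* at 121 (105 to 139). Excitatory neuron markers summed to 1361 in these cells, against 645 in WMI cells of cluster 11 and 1736 in excitatory neuron-like cells. The 11 microglia markers summed to 1738.5 in them, against 6115 in WMI cells of cluster 11. In activated myeloid-like cells of the WMI library, *Gria2* stood at 785 (755 to 815) and *Grik4* at 64.3 (56.1 to 73.4). Below, background means cluster 11, the microglia-like cluster with at least 50 cells in both libraries. Values against all microglia-like cells are given beside the results that turn on it. Of all microglia-like cells, 418 of 426 were cluster 11 in the control library, whereas 717 of 868 were cluster 8 in the WMI library. This second reference was thus unlike between the libraries and carried more neuronal RNA in the WMI library than cluster 11.

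**Figure D1:**
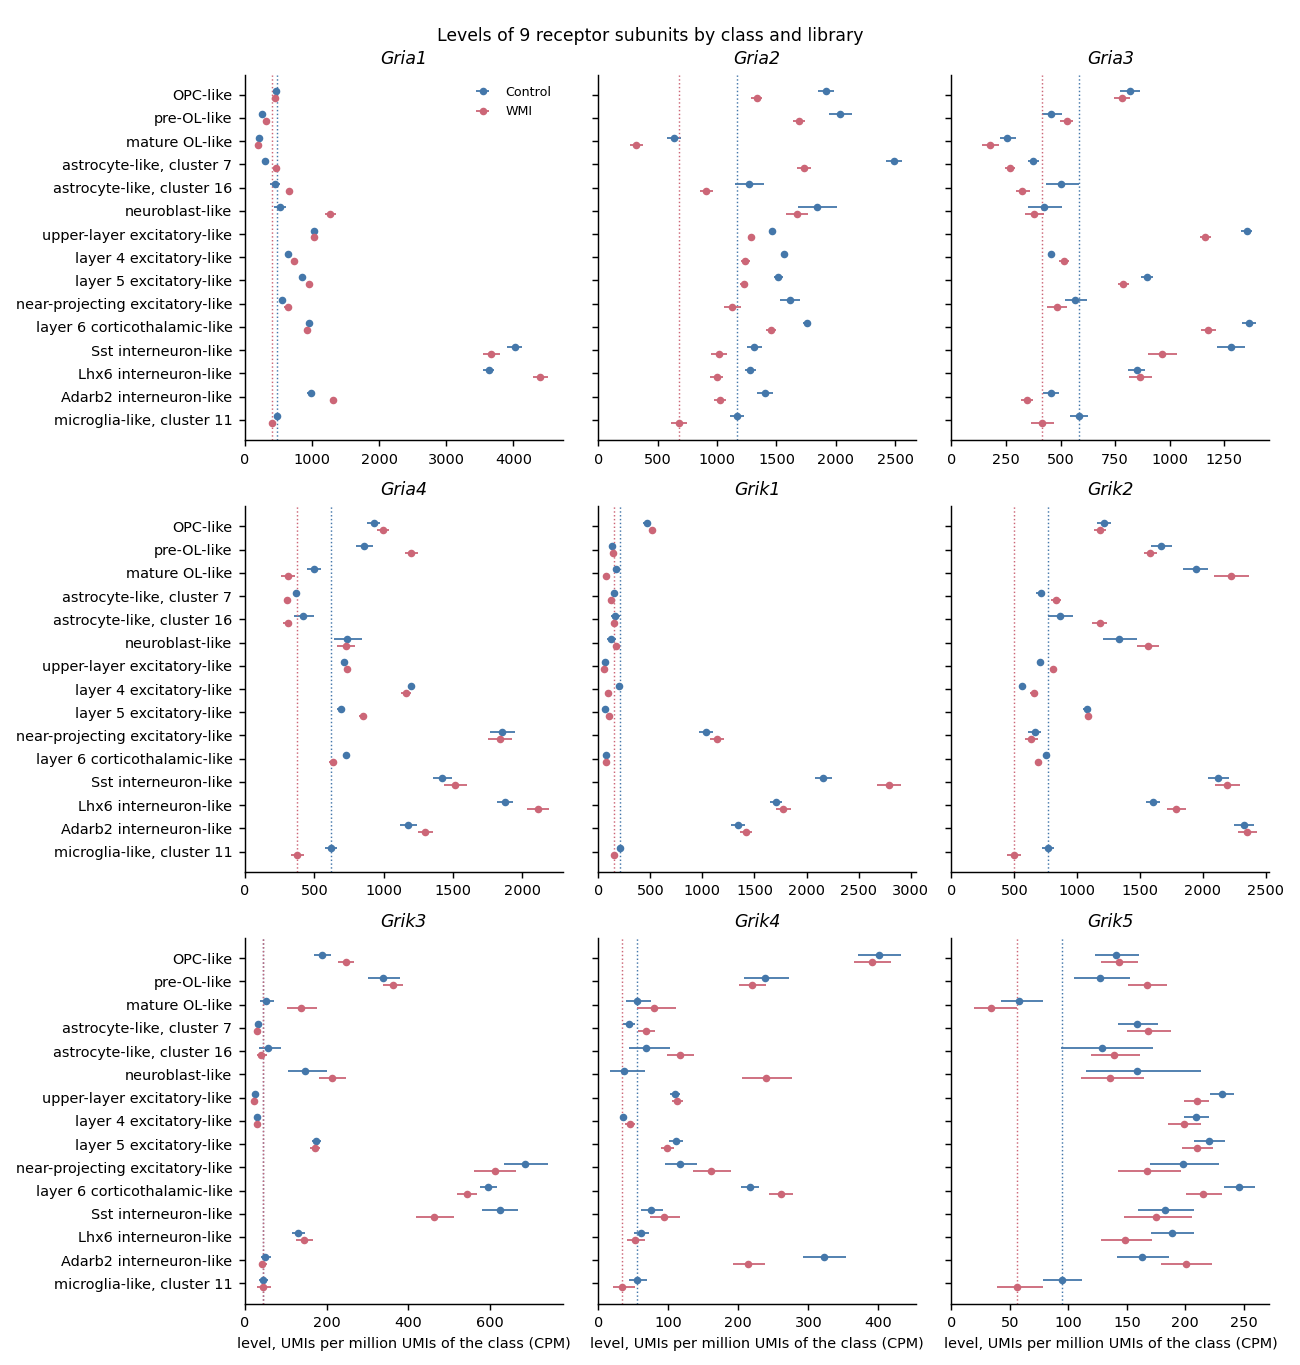
Levels of the 9 subunits in 15 classes. Each panel is 1 gene, the horizontal axis gives the level in CPM, points and bars show the value and its exact 95% Poisson interval for the control (blue) and WMI (red) library, and dotted lines mark the level in microglia-like cluster 11. *Gria1* and *Grik1* reach their highest values in Sst and Lhx6 interneuron-like cells (4018 and 2159 in control Sst interneuron-like cells), and *Grik4* in OPC-like cells (401 in the control library).

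In OPC-like cells, 8 of the 9 members lay above the microglia-like background in both libraries, *Gria1* being the exception. Over all 4604 genes compared in this way, 19.0% did so. Genes with more UMIs have narrower intervals and pass such a rule more easily, here and in the like shares below. Against all microglia-like cells, a comparison chosen after seeing the data, 7 of 9 members were above in both libraries, *Gria1* and *Grik5* being the exceptions, and 15.8% of 4992 genes were. *Grik4*, a high-affinity kainate subunit, stood furthest from background. Its level was 401 (371 to 433) in the control and 391 (366 to 418) in the WMI library, 7.18-fold and 11.6-fold over the background of the same library, and 7.21-fold and 4.05-fold over all its microglia-like cells. After each cell was thinned to 1000 UMIs, 31.4% (26.2 to 36.9) of control and 35.9% (31.7 to 40.4) of WMI OPC-like cells held a *Grik4* UMI, against 4.55% and 3.31% of microglia-like cells. Before thinning the shares were 82.03% and 74.5% against 16.03% and 12.6%. Among the 15 classes OPC-like cells had the highest *Grik4* level in both libraries, and the interval did not overlap that of the next class, which was Adarb2 interneuron-like in the control and layer 6 corticothalamic-like in the WMI library.

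The low-affinity kainate subunits were also present in OPC-like cells. *Grik3*, which encodes GluK3, stood at 189 (168 to 211) in the control and 247 (227 to 268) in the WMI library, 4.28-fold and 5.67-fold over background and 4.15-fold and 3.15-fold over all microglia-like cells. *Grik1*, which encodes GluK1, stood at 465 (433 to 499.5) in the control and 519 (489.6 to 549) in the WMI library, and *Grik2*, which encodes GluK2, at 1214 (1161 to 1268) in the control and 1181 (1137 to 1226) in the WMI library. For *Grik1*, OPC-like cells came next among the classes in both libraries after the 3 interneuron-like subtypes and near-projecting neuron-like cells, and apart from the next class. Its level was 2.90-fold that of all excitatory neuron-like cells in the control library and 4.30-fold in the WMI library. For *Grik4* the same ratios were 3.02-fold and 2.64-fold. Of the 6545 control excitatory neuron-like cells, 2367 and 1179 lay in clusters 0 and 2, which were nearly absent from the WMI library, and there *Grik1* stood at 305 and 207 and *Grik4* at 95.5 and 82.8. *Grik5*, the other high-affinity subunit, was closer to background, at 141 (123 to 160.0) in the control and 143 (128 to 159) in the WMI library against 94.1 and 56.4 in microglia-like cells.

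Of the AMPA subunits, *Gria2*, which encodes the subunit that limits calcium entry, stood at 1917 (1850.1 to 1985) in the control and 1333 (1286 to 1381) in the WMI library in OPC-like cells. This was 1.65-fold and 1.97-fold the background of the same library, and 1.64-fold and 1.09-fold the level of all microglia-like cells. *Gria3*, which encodes GluA3, stood at 817 (774 to 862) in the control and 781 (745 to 818) in the WMI library, and *Gria4*, which encodes GluA4, at 927 (881 to 975) in the control and 995 (955 to 1037) in the WMI library. Both were above background in both libraries, *Gria4* by 1.501-fold and 2.65-fold, and by 1.48-fold and 1.52-fold over all microglia-like cells. *Gria1*, which encodes the calcium-permeable GluA1, stood at 468 (435 to 502) in the control and 454 (426 to 482) in the WMI library, within the interval of background (471 and 406). The share of OPC-like cells with a *Gria1* UMI at 1000 UMIs was 34.97% and 38.6%, against 40.7% and 32.5% in microglia-like cells. It was thus not told apart from this background. Excitatory neuron markers summed to 701 and 533 in OPC-like cells against 1049 and 645 in cluster 11, so the 2 carried unlike amounts of neuronal RNA. Whether OPC-like cells hold *Gria1* RNA of their own was not tested. Against all microglia-like cells, *Gria1* in OPC-like cells was at 0.971-fold in the control library and 0.688-fold in the WMI library. Against excitatory neuron-like cells, *Gria1* in OPC-like cells was lower by 1.82-fold and 2.05-fold.

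Along the OL lineage the kainate subunits followed different courses. From OPC-like to mature OL-like cells, *Grik2* was higher by a log2 ratio of 0.68 (0.58 to 0.78) in the control and 0.91 (0.81 to 1.02) in the WMI library. In mature OL-like cells its level was 1943 (1845 to 2044) in the control and 2223 (2086 to 2367) in the WMI library. Of the mature OL-like cells thinned to 1000 UMIs, 80.9% and 92.7% held a *Grik2* UMI, against 50.7% and 43.7% of microglia-like cells. The levels of the other kainate subunits were lower at this stage than in OPC-like cells. *Grik1* had log2 ratios of mature OL-like to OPC-like cells of -1.43 (-1.71 to -1.16) and -2.75 (-3.28 to -2.26). *Grik4* had ratios of -2.86 (-3.34 to -2.41) and -2.30 (-2.83 to -1.81), which left it at 55.4 and 79.5 CPM, against a background of 55.9 and 33.9 that it overlapped in the control library. Against all microglia-like cells it overlapped in both libraries. *Grik5* lay under background by value, with 44 UMIs (58.02 CPM) in the control and 15 UMIs (34.1 CPM) in the WMI library.

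Pre-OL-like cells, in which *Gria2* stood at 2037 and 1691 and *Gria4* at 859 and 1199, lay between these stages for some members and apart from them for others. *Grik3* had its highest lineage value in pre-OL-like cells in both libraries, at 339 (302 to 379) in the control and 363 (339 to 388) in the WMI library. The log2 ratios of pre-OL-like to OPC-like cells were 0.84 (0.61 to 1.08) and 0.56 (0.40 to 0.71), and those of mature OL-like to OPC-like cells -1.88 (-2.40 to -1.39) and -0.86 (-1.27 to -0.47). *Grik5* was higher in pre-OL-like than in OPC-like cells in the WMI library, with 0.23 (0.011 to 0.44), whereas its control interval included 0, with -0.14 (-0.48 to 0.19). *Grik2* was higher in pre-OL-like than in OPC-like cells by 0.46 (0.36 to 0.56) and 0.42 (0.35 to 0.49). *Grik1* was lower there by more than any other member, with -1.79 (-2.07 to -1.51) and -1.87 (-2.05 to -1.70). Summed over the 5 kainate subunits, mature OL-like and OPC-like cells were nearly level, with log2 ratios of -0.080 (-0.16 to 0.0024) and 0.040 (-0.054 to 0.13). *Grik2* made up 50.4% and 47.6% of the kainate UMIs of OPC-like cells, 66.5% and 63.9% of those of pre-OL-like cells, and 85.2% and 87.2% of those of mature OL-like cells. In the microglia-like background it made up 1041 of 1583 kainate UMIs in the control and 307 of 482 in the WMI library. These background shares were close to those of pre-OL-like cells.

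The AMPA subunits were lower in mature OL-like than in OPC-like cells. The log2 ratios for *Gria2* were -1.59 (-1.73 to -1.45) and -2.08 (-2.33 to -1.83), and those for *Gria3* -1.68 (-1.90 to -1.46) and -2.16 (-2.51 to -1.83). For *Gria1* they were -1.12 and -1.27, and for *Gria4* -0.90 and -1.70. Summed over the AMPA subunits, the level was 4129 in control OPC-like and 1605 in control mature OL-like cells, and 3562 and 986 in the WMI library. The sum in mature OL-like cells was under that of microglia-like cells, 2838 and 1873. Relative to microglia-like cells, 1 of the 9 members (*Grik2*) was above and 3 (*Gria1*, *Gria2* and *Gria3*) below in mature OL-like cells in both libraries, where 21.0% of all genes were above and 46.6% below. Against all microglia-like cells *Gria4* (0.793-fold and 0.467-fold) and *Grik5* (0.609-fold and 0.251-fold) were below in both libraries as well. *Gria2* in pre-OL-like cells was near or above its OPC-like level, with ratios of 0.088 (0.0038 to 0.17) and 0.34 (0.27 to 0.41), whereas *Gria1* and *Gria3* were lower there in both libraries (-0.85 and -0.56 for *Gria1*, -0.83 and -0.56 for *Gria3*).

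Past 1.5-fold, 1 member was higher and 8 were lower in mature OL-like than in OPC-like cells in each library. Of all genes with at least 100 UMIs, 21.5% were higher and 32.6% lower in the control library, and 17.6% and 41.1% in the WMI library. The median log2 ratio over the members was -1.43 and -2.07, against -0.15 and -0.35 over all genes. From OPC-like to pre-OL-like cells, 1 member was higher (*Grik3*) and 4 were lower (*Gria1*, *Gria3*, *Grik1* and *Grik4*) past 1.5-fold in the control library, where the background was 15.1% higher and 19.2% lower. In the WMI library 0 members were higher and 2 lower (*Grik1* and *Grik4*), against 12.2% and 15.2% of all genes. The medians there were -0.14 and 0.23 over the members and -0.022 and 0.0099 over all genes. The mature OL-like class rests on 41 cells in the WMI library, and excitatory neuron markers summed to 530.1 and 309 in it against 701 and 533 in OPC-like cells, so that the neuronal RNA carried by a stage was also lower in it. The part of this in the ratios was not tested.

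**Figure D2:**
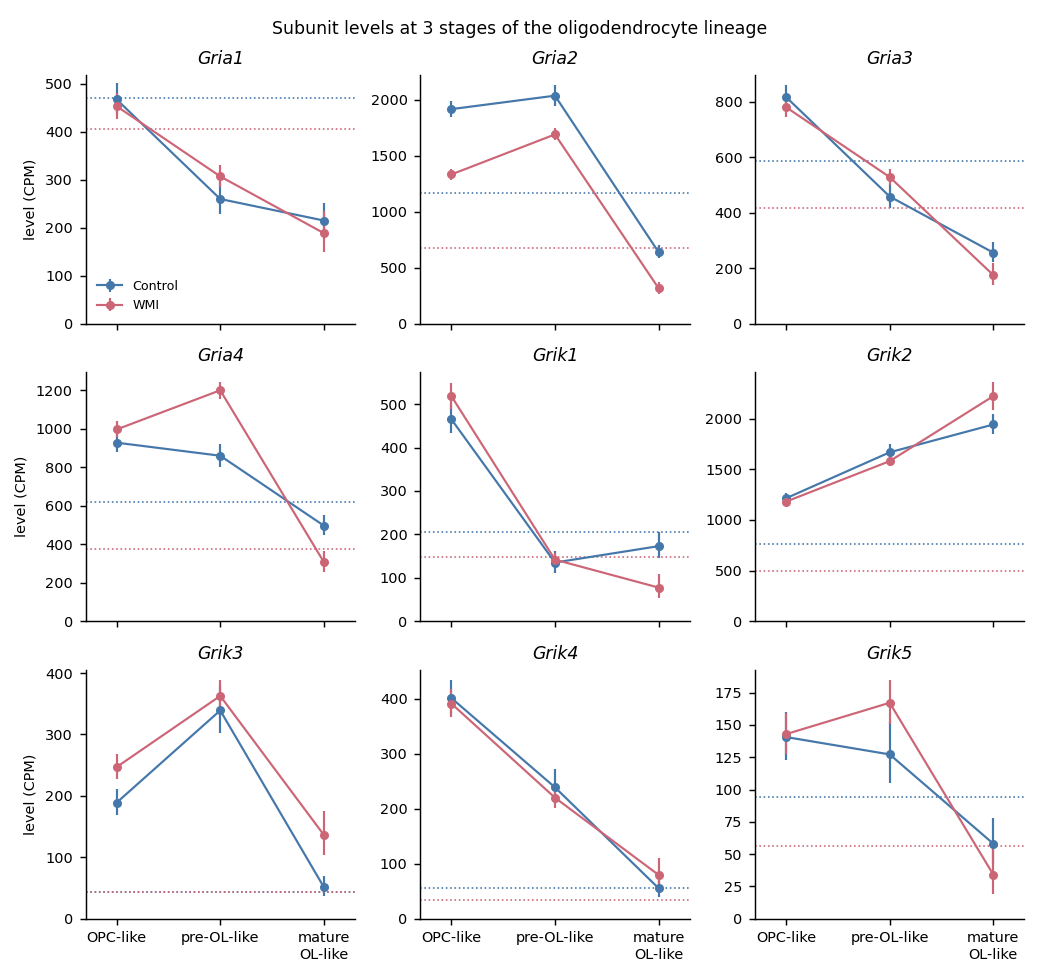
Subunit levels at 3 stages of the OL lineage. Each panel is 1 gene, the vertical axis gives the level in CPM from 0, points and bars show values with exact 95% Poisson intervals for the control (blue) and WMI (red) library, and dotted lines mark microglia-like cluster 11. *Grik2* goes from 1214 in OPC-like to 1943 in mature OL-like control cells, while the other 8 members end below their OPC-like values, and *Grik3* peaks in pre-OL-like cells at 339 and 363.

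In neurons, *Gria1* and *Grik1* had their highest levels in interneuron-like cells. *Gria1* reached 4018 (3907 to 4130.0) in the control and 3673 (3544 to 3806) in the WMI library in Sst interneuron-like cells. In Lhx6 interneuron-like cells it stood at 3631 (3551 to 3713) in the control and 4401 (4287 to 4518) in the WMI library, and in upper-layer neuron-like cells, the highest excitatory subtype in both libraries, at 1029 and 1031. Sst interneuron-like cells had the highest *Gria1* level in the control library and Lhx6 interneuron-like cells in the WMI library, and neither pair of neighbours overlapped. *Grik1* was also highest in Sst interneuron-like cells, at 2159 (2079 to 2242) in the control and 2792 (2679.9 to 2908) in the WMI library, and it was among the 10 leading genes of that cluster although it had not been used for clustering. It followed in the same order in both libraries in Lhx6 (1705 and 1776), Adarb2 (1341 and 1416) and near-projecting neuron-like cells (1030.0 and 1139.8), with no overlap between neighbours.

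*Gria4* was highest in Lhx6 interneuron-like cells, at 1873 (1816 to 1932) in the control and 2113 (2034 to 2194) in the WMI library. Near-projecting neuron-like cells, a deep-layer excitatory subtype, came next with 1854 and 1837, a value whose interval overlapped that of Lhx6 interneuron-like cells in the control library. *Grik3* was highest in near-projecting (687 and 612), Sst interneuron-like (624 and 464) and layer 6 corticothalamic-like cells (597 and 543), and was at 24.6 and 21.6 in upper-layer neuron-like cells. *Grik2* was highest in Adarb2 interneuron-like cells, at 2327 and 2355, a value that its neighbour in the order overlapped in the WMI library. *Gria3* was highest in layer 6 corticothalamic-like (1363 and 1178) and upper-layer neuron-like cells (1353 and 1163), which overlapped each other. For *Grik5* the neuron subtypes could hardly be ordered, with layer 6 corticothalamic-like cells first at 246 and 216 and each neighbour in the control library overlapping the next down to pre-OL-like cells.

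The level of *Gria2* over the 8 neuron subtypes ran from 1280.2 in Lhx6 interneuron-like to 1755 in layer 6 corticothalamic-like cells of the control library and from 998 to 1456 in the WMI library. Its highest values over all classes were found in astrocyte-like cluster 7, where the WMI interval overlapped that of pre-OL-like cells. As a share of the AMPA UMIs of a class, *Gria2* took 16.8% (16.2 to 17.4) and 11.9% (11.3 to 12.5) in Lhx6 interneuron-like cells, against 37.1% and 31.9% in excitatory neuron-like cells. *Gria1* took 47.6% and 52.5% in the same interneurons, against 19.5% and 22.7%. These shares are compared for a gene with itself across classes and are not ratios of molecules, since the genes differ in length and capture. Parvalbumin interneurons, which belong to the *Lhx6* lineage, are known as cells with little GluA2.

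**Figure D3:**
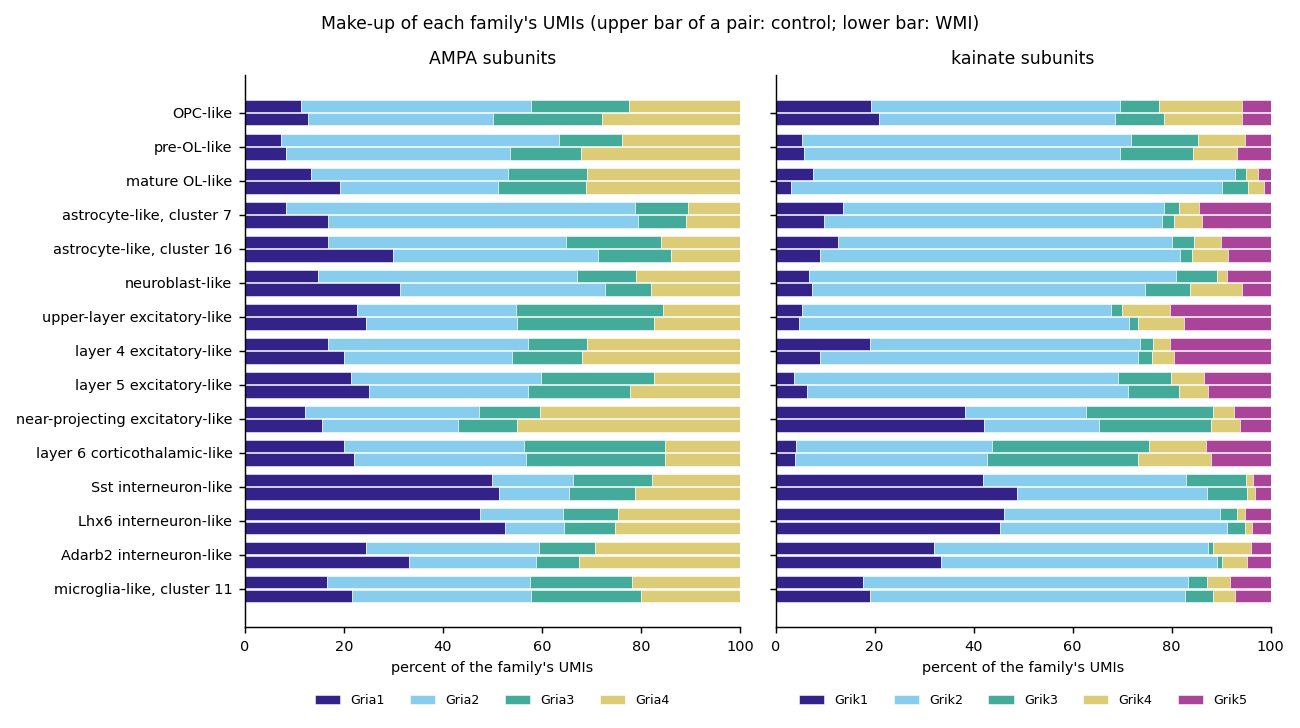
Make-up of the UMIs of each family in 15 classes. The horizontal axis gives percent of the UMIs of the 4 AMPA subunits (left) or the 5 kainate subunits (right), colours stand for the subunits, and of each pair of bars the upper is the control and the lower the WMI library. *Gria1* takes 50.01% of AMPA UMIs in control Sst interneuron-like cells against 11.3% in control OPC-like cells, and *Grik2* takes 85.2% of kainate UMIs in control mature OL-like cells.

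In astrocyte-like cluster 7, *Gria2* was the AMPA subunit above background in both libraries. It stood at 2492 (2426 to 2560.1) in the control and 1732 (1674 to 1791) in the WMI library, above background by 2.14-fold and 2.56-fold and above all microglia-like cells by 2.13-fold and 1.41-fold, and took 70.6% (69.6 to 71.6) and 62.6% (61.3 to 63.9) of the AMPA UMIs. *Grik5* was the other member above background in both libraries, at 159 (143 to 177) in the control and 168 (150.5 to 187) in the WMI library. The levels of *Gria3* (376 and 268) and *Grik1* (149 and 118) were below or overlapped those of microglia-like cells. In cluster 16, the astrocyte-like cluster led by *Gfap*, *Gria2* was lower than in cluster 7, at 1269 and 911, with log2 ratios of cluster 16 to cluster 7 of -0.97 (-1.12 to -0.83) and -0.93 (-1.03 to -0.83). *Gria1* was higher in cluster 16 by 0.60 (0.34 to 0.86) and 0.50 (0.37 to 0.64). No member of cluster 16 was above background in both libraries. The share of all genes above background in both was not computed for clusters 7 and 16. It was 19.0% in OPC-like and 21.0% in mature OL-like cells. In WMI cells of cluster 16, *Gria1* was above background (1.62-fold) and level with all microglia-like cells (0.999-fold). Excitatory neuron markers summed to 837 and 489.7 in cluster 16 and 657 and 493 in cluster 7, and their part in these differences was not tested.

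To ask how the receptor genes differed after WMI, each level in the WMI library was divided by the control level of the same class, in 13 classes with at least 50 cells in both libraries. The libraries also differed in free RNA and mitochondrial share. The 11 microglia markers summed higher in the WMI library in each of the 13 classes, for example 174 and 581 in OPC-like cells. In upper-layer neuron-like cells they summed to 90.2 and 289. The part of these differences in the ratios was not tested. *Gria2* was the member with a common direction before any background was subtracted. Its interval lay below 0 in 12 of the 13 classes, among them all 8 neuron subtypes, neuroblast-like cells being the exception, and over all 13 the log2 ratios ran from -0.53 to -0.14. Of 6378 genes with at least 100 UMIs in each class, 0.376% were lower in at least 12 classes, but genes with more UMIs have narrower intervals and pass more easily. In OPC-like cells *Gria2* stood at 1917 in the control and 1333 in the WMI library, a log2 ratio of -0.52 (-0.60 to -0.45). In pre-OL-like cells the ratio was -0.27 (-0.35 to -0.19), and in astrocyte-like cluster 7 it was -0.53 (-0.59 to -0.46). The microglia-like background was lower in the WMI library as well, with -0.78 (-0.94 to -0.63), further from 0 than in any of the 13 classes, whereas over all microglia-like cells the ratio was 0.070 (-0.019 to 0.16). Excitatory neuron markers were also lower in WMI OPC-like cells, at 701 and 533 (a log2 ratio of -0.40). In cluster 11 they summed to 1049 and 645 (-0.70), so that subtraction of its whole level may take off too much. With the background of the same library subtracted, the OPC-like ratio became -0.20 and the pre-OL-like ratio turned to 0.22. With the level of all microglia-like cells subtracted, they became -2.82 and -0.91. In the WMI library those cells were mostly cluster 8, which carried more neuronal RNA than cluster 11. The size of the *Gria2* difference, and in pre-OL-like cells also its direction, thus depended on the cells taken as background. In cells with a Y-linked UMI and without *Xist*, the OPC-like ratio was -0.50.

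*Gria1* tended the other way, with intervals above 0 in 9 classes and below 0 in 1. Of all genes, 2.49% were higher in at least 9 classes. In astrocyte-like cluster 7 it stood at 291 (269 to 315) in the control and 465 (435 to 496) in the WMI library, a log2 ratio of 0.67 (0.52 to 0.82). In cluster 16 the ratio was 0.57 (0.32 to 0.83). In the background the ratio was -0.21 (-0.43 to -0.0016), and over all microglia-like cells it was 0.45 (0.32 to 0.59). In OPC-like cells the *Gria1* levels overlapped, with a ratio of -0.044 (-0.18 to 0.092), and in Sst interneuron-like cells *Gria1* was slightly lower in the WMI library, -0.13 (-0.19 to -0.064). The share of *Gria2* among the AMPA UMIs of OPC-like cells was 46.4% (45.2 to 47.6) in the control and 37.4% (36.4 to 38.5) in the WMI library, and in the microglia-like background it was 41.01% and 36.1%. In pre-OL-like cells the share was 56.4% and 45.4%, and in excitatory neuron-like cells 37.1% and 31.9%. The excitatory neuron-like class was not matched between the libraries, since its clusters 0 and 2 held 2367 and 1179 control but 28 and 10 WMI cells.

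Up to the pre-OL-like stage the other members stayed within 1.5-fold between the libraries. No ratio was computed for mature OL-like cells, of which the WMI library held 41. *Grik3* stood there at 51.4 (36.6 to 70.3) in control and 136 (104 to 176) in WMI cells, on 39 and 60 UMIs. *Grik2* was also higher in WMI cells, at 1943 and 2223. Lower in WMI cells were *Gria2* (638 and 316), *Gria3* (256 and 175), *Gria4* (496 and 307) and *Grik1* (173 and 77.3). In each library these lower members were below background or overlapped it. Excitatory neuron markers summed to 530.1 and 309 in mature OL-like cells, and their part in these differences was not tested. *Grik3* was higher in WMI OPC-like cells, with a log2 ratio of 0.39 (0.18 to 0.59), and *Grik1* had 0.16 (0.024 to 0.29). The ratios of *Grik4*, *Grik2* and *Grik5* there were -0.036 (-0.18 to 0.11), -0.040 (-0.12 to 0.045) and 0.023 (-0.22 to 0.27), intervals that include 0. For *Gria3* and *Gria4* the OPC-like ratios were -0.066 (-0.17 to 0.037) and 0.10 (0.0086 to 0.20). *Gria3* is X-linked, and its ratio in cells with a Y-linked UMI and without *Xist* was -0.17. In pre-OL-like cells *Gria4* was higher in the WMI library, 1199 (1155 to 1244) against 859 (799 to 922), a ratio of 0.48 (0.37 to 0.60), and *Grik5* had 0.39 (0.090 to 0.71). The summed AMPA level of OPC-like cells had a ratio of -0.21 (-0.26 to -0.17) and the summed kainate level one of 0.042 (-0.017 to 0.10). The AMPA ratio turned to 0.39 with the background subtracted and became -1.62 with the level of all microglia-like cells subtracted. Excitatory neuron markers summed to 1049 and 645 in cluster 11 against 701 and 533 in OPC-like cells. Its whole level was subtracted, which may take off too much, and unequally between the libraries. The direction of the AMPA ratio was thus not settled. In pre-OL-like cells the sums had ratios of 0.044 (-0.015 to 0.10) and -0.021 (-0.091 to 0.050). The other pre-OL-like ratios ran from -0.12 for *Grik4* to 0.24 for *Gria1*. Over the 13 classes, the AMPA sum was lower in 9 and higher in 2, and the kainate sum higher in 6 and lower in 1. *Gria3* was lower in 8 and higher in 2, *Grik2* and *Grik4* were each higher in 6 and lower in 1, and the other kainate subunits and *Gria4* had intervals on both sides of 0. The shares of all genes that reach these counts of classes were not computed, so the counts are a description only.

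Past 1.5-fold, 0 of 9 members differed in OPC-like cells, where 5.06% of all genes were higher and 2.39% lower in the WMI library, and the median log2 ratio was -0.036 over the members and 0.039 over all genes. In pre-OL-like cells it was again 0 of 9 members, against 6.90% and 4.54%, with medians of 0.097 and 0.049. In astrocyte-like cluster 7, *Gria1* and *Grik4* (2 of 9) were higher and 0 lower, against 8.80% and 5.14%, with medians of -0.13 and 0.072. In control cells of cluster 7 *Gria1* was below background (0.618-fold) and *Grik4* overlapped it. Against all microglia-like cells *Gria1* was below in both libraries (0.605-fold and 0.704-fold) and *Grik4* below in the WMI library (0.706-fold), and the WMI-to-control ratio of *Grik4* in those microglia-like cells was itself 0.80 (0.41 to 1.19). In upper-layer neuron-like and Lhx6 interneuron-like cells no member passed in either direction. The background shares there were 4.65% higher and 3.06% lower in the first class, and 4.10% and 3.61% in the second. The member medians were -0.075 and 0.059, against 0.0015 and -0.041 over all genes.

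The ratios furthest from 0 were those of *Grik4* and *Gria1* in neuroblast-like cells and of *Grik1* in layer 4 neuron-like cells. *Grik4* in neuroblast-like cells stood at 36.1 (17.3 to 66.4) in the control library (10 UMIs in 54 cells) and 239 (206 to 277) in the WMI library (180 UMIs in 176 cells), a log2 ratio of 2.73 (1.82 to 3.81). *Gria1* was also higher in WMI neuroblast-like cells, 516 and 1270.5, a ratio of 1.30 (1.04 to 1.56). The 6 markers of inhibitory neurons summed to 2062 and 1115 in the same cells, so that the make-up of this class also differed between the libraries, and its part in these ratios was not tested. *Grik1* was lower in WMI layer 4 neuron-like cells, 196 and 91.5, a ratio of -1.10 (-1.27 to -0.93), and higher in layer 5 neuron-like cells, 60.9 and 106, a ratio of 0.80 (0.59 to 1.01). These levels were at or under the background of 204 and 148, being below it in both libraries in layer 5 and in the WMI library in layer 4, where the control level overlapped it. Within layer 5 the clusters differed, with 0.67 (0.32 to 1.02), 1.29 (0.95 to 1.63) and 0.14 (-0.32 to 0.60) in clusters 18, 19 and 22. *Grik4* was lower in WMI Adarb2 interneuron-like cells, -0.59 (-0.80 to -0.38), and higher in astrocyte-like cluster 7, 0.66 (0.26 to 1.06), where its level was 43.2 and 68.2.

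**Figure D4:**
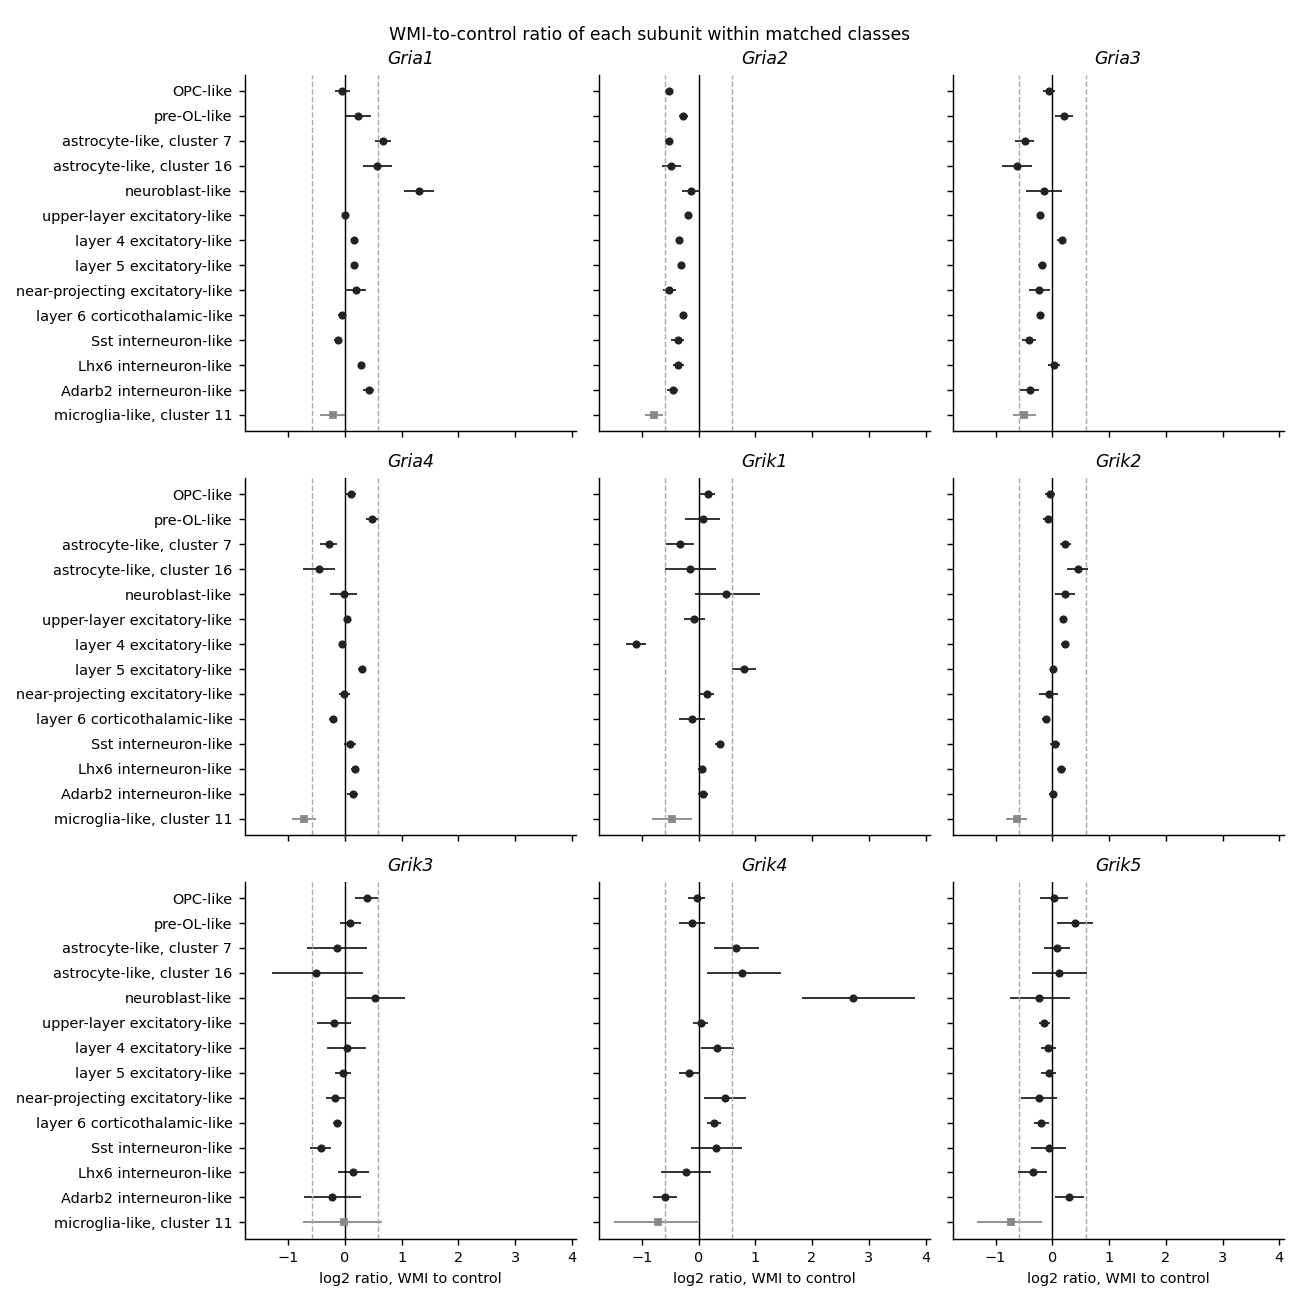
WMI-to-control log2 ratios of the 9 subunits within classes that held at least 50 cells in both libraries. Each panel is 1 gene, the horizontal axis is the log2 ratio, points and bars give the value and its exact 95% interval for counting error, grey squares show microglia-like cluster 11, and dashed lines mark 1.5-fold. *Gria2* lies below 0 by value in all 13 classes (from -0.53 to -0.14) and in microglia-like cells (-0.78), while *Grik4* reaches 2.73 in neuroblast-like cells.

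AMPA and kainate receptors work with auxiliary and editing proteins, and 30 such genes were listed as partners. All 30 were found. In OPC-like cells 29 had at least 20 UMIs, and 2 of them differed past 1.5-fold, both lower in the WMI library. Of all genes with as many UMIs, 19.6% passed in either direction and 7.56% were lower, and the partners' median was 0.039. The lowest ratios were those of *Cnih2*, which encodes a cornichon that slows AMPA receptor closing (-0.999, -1.88 to -0.15, on 51 UMIs), *Cacng2*, which encodes stargazin (-0.59, -1.06 to -0.13), and *Shisa9* (-0.48, -0.64 to -0.32). The highest were those of *Nptxr*, a neuronal pentraxin receptor (0.48, 0.027 to 0.95), *Adar*, an RNA-editing enzyme (0.39, 0.043 to 0.73), and *Cacng5* (0.25, -0.85 to 1.42, on 32 UMIs). *Adarb1*, the other RNA-editing enzyme listed, had 0.0046 (-0.36 to 0.37) and is added here beside *Adar*. In pre-OL-like cells 27 partners had at least 20 UMIs, of which 1 (*C1ql3*, 0.77, -0.12 to 1.76, on 71 UMIs, named after its value was seen) was higher and 0 lower past 1.5-fold, against 15.6% and 9.47% of all genes, with a median of -0.13.

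The partner with the highest level in OPC-like relative to excitatory neuron-like cells was *Cacng4*, which encodes a transmembrane AMPA receptor regulatory protein. Its level was 888 and 693 in OPC-like cells against 23.5 and 30.2 in excitatory neuron-like cells, or 37.8-fold and 22.9-fold. It stood at 171 and 121 in pre-OL-like cells and 7.91 and 13.6 in mature OL-like cells, and its WMI-to-control ratio in OPC-like cells was -0.36 (-0.46 to -0.25). *C1ql2* came next by value with 2.41-fold and 2.46-fold, on 1 control and 3 WMI UMIs in OPC-like cells and with log2 intervals from -4.16 to 4.05 and from -1.14 to 3.14. *Shisa6*, which encodes another AMPA receptor partner, followed with 2.29-fold and 2.41-fold, and *Cacng7*, added here because of the few *C1ql2* UMIs, with 2.06-fold and 2.16-fold. From OPC-like to mature OL-like cells, the interval was lower for 17 of 28 partners in the control library, where 24.5% of all genes were lower, and for 16 of 29 in the WMI library, where 25.1% were, and it was higher for 2 (*Pick1* and *Dlg1*) and 1 (*Dlg1*). All genes here means those with at least 20 UMIs. Genes with more UMIs have narrower intervals and pass more easily, and partners were not matched to other genes by UMIs. The share of all genes higher by this rule is not given.

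The genes whose pattern over the 15 classes was most like that of each member were found with Pearson's r of log2 levels, over 12327 genes and the mean of both libraries. The classes share their library, depth and free RNA, and the values are a description. *Grik1* was most like *Kcnip1* (r = 0.95), *Alk* (0.94) and *Rbms3* (0.90), and *Gria1* most like *Gm16126* (0.93), *Grip2* (0.93) and *Epha10* (0.93). *Grip2*, which encodes a scaffold that binds AMPA receptors, was the one listed partner among these genes. *Gria4* was most like *Nipal2* (0.90), *Gas2* (0.89) and *Reps2* (0.89), *Gria3* most like *Rbfox1* (0.87), *Map7d2* (0.85) and *Rapgef2* (0.84), and *Gria2* most like *Fam8a1* (0.86), *Ighmbp2* (0.83) and *Rpap3* (0.83). For *Grik2* the first were *Gm47016* (0.91) and *Gm47017* (0.88), which overlap *Grik2* on its own strand and may share its reads, and then *Tle2* (0.86). *Grik4* was most like *Slc22a17* (0.86), *Il17d* (0.84) and *Csmd3* (0.83), and *Grik5* most like *Numbl* (0.93), *Tubgcp6* (0.91) and *Dok6* (0.91). *Grik3* had the weakest likeness, with *Rimkla* (0.84) and *Pelp1* (0.75) among its nearest genes.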

How the data were processed

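The tables of UMI counts came from 2 libraries, 1 control and 1 WMI, of mouse cortex. The deposited counts were made by the authors with Cell Ranger 6.1.1 per the file headers, as filtered barcodes with no normalization. Per the labels, Seurat and build mm9 were used, whereas all 55450 gene identifiers matched GENCODE M21 on GRCm38. Whether intronic reads were counted is not given in the sources used here.

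Barcodes were kept at 1000 UMIs, 500 genes and at most 10% mitochondrial UMIs, which removed 748 control and 241 WMI barcodes. Also removed were 785 and 542 predicted doublets, set at 0.8% per 1000 barcodes. Of 500 artificial doublets per library, 77.8% and 71.4% were recovered. Integration and clustering used Seurat 5.3.0 in R 4.3.3 (2000 features, 30 components, resolution 0.8), leaving the members, their partners, cell-cycle and sex-linked genes out of the features. Clusters were named from 25 marker lists, and 3 stayed unnamed. Sums, intervals and figures were made with Python 3.11.15, scipy 1.17.1 and matplotlib 3.10.9. Of these, the code for the ratio intervals was checked on Poisson counts simulated for OPC-like and pre-OL-like cells. Such counts meet the assumption of the intervals, so the check does not cover variation between cells or mice.

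Levels (CPM) were summed UMIs of a gene over all UMIs of a class with exact Poisson intervals. Ratios had exact conditional binomial intervals, and shares Clopper-Pearson intervals. All of these intervals cover counting error only. A ratio required at least 50 cells per library, and a level 30. The replicate numbers name single libraries, so no test between conditions was made.

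The rule for named genes took all 9 members, the partners with the 3 highest and 3 lowest WMI-to-control ratios in OPC-like cells at 20 UMIs or more, the 3 partners highest over excitatory neuron-like cells, and for each member the 3 genes most like it by Pearson's r of log2(CPM + 10). For *Grik3*, 1 of these genes is not reported here. Members and lists were chosen with earlier results of these data known. Alternatives covered doublets, resolution, integration, filters, sex, scaling, weighting, thinning and background. Subtraction of the level in all microglia-like cells was added after seeing the data.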

Additional observations from a re-analysis of the deposited data

Results flagged for a closer look

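For 8 of the 9 members the WMI-to-control ratio lay above 0 in some classes and below 0 in others, with 95% intervals for counting error that did not include 0. The share of all genes that did so was not computed, and genes with more UMIs have narrower intervals and do so more easily. With 1 library per condition the difference between classes was not tested. The classes at both ends are given here as log2 ratios.

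*Gria1* ran from 1.30 (1.04 to 1.56) in neuroblast-like cells to -0.13 (-0.19 to -0.064) in Sst interneuron-like cells. *Gria3* ran from 0.21 (0.043 to 0.37) in pre-OL-like cells to -0.63 (-0.89 to -0.37) in astrocyte-like cluster 16, and *Gria4* from 0.48 (0.37 to 0.60) to -0.46 (-0.73 to -0.17) in the same pair of classes. Pre-OL-like cells stood at the upper end for both of these AMPA subunits and the *Gfap*-led astrocyte-like cells at the lower end. The 9 OPC-like markers also summed higher in WMI pre-OL-like cells, at 3956 and 5616, and the part of this was not tested. In cluster 16, *Gria4* was below microglia-like cluster 11 in both libraries (0.680-fold and 0.816-fold). *Gria3* there overlapped cluster 11 in the control and was below it in the WMI library, and in pre-OL-like cells it was below in the control and above in the WMI library. Cluster 11 itself stood at 585 and 416 for *Gria3* and at 618 and 376 for *Gria4*.

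Among the kainate subunits, *Grik4* had the widest range, from 2.73 (1.82 to 3.81) in neuroblast-like cells to -0.59 (-0.80 to -0.38) in Adarb2 interneuron-like cells, and its upper end rests on 10 control UMIs. *Grik1* ran from 0.80 (0.59 to 1.01) in layer 5 to -1.10 (-1.27 to -0.93) in layer 4 neuron-like cells, and at both ends its levels were at or under those of microglia-like cluster 11. *Grik2* ran from 0.45 (0.27 to 0.63) in astrocyte-like cluster 16 to -0.12 (-0.19 to -0.044) in layer 6 corticothalamic-like cells. *Grik3* ran from 0.52 (0.021 to 1.06) in neuroblast-like to -0.43 (-0.61 to -0.25) in Sst interneuron-like cells, and *Grik5* from 0.39 (0.090 to 0.71) in pre-OL-like to -0.34 (-0.60 to -0.091) in Lhx6 interneuron-like cells. *Gria2* was the member without an interval above 0.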

How the results depend on the processing

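The choice of background moved the WMI-to-control ratios most. Subtraction took off the whole level of cluster 11, which carried more neuronal RNA than OPC-like cells (excitatory neuron markers 1049 and 645 against 701 and 533). The part of this in the reversals was not tested. Astrocyte-like cells here are clusters 7 and 16 pooled, a mix that differed between the libraries (409 and 79 control, 358 and 249 WMI cells). The AMPA sum stood at 3530 and 2768 CPM in cluster 7 and at 2635 and 2201 in cluster 16. The kainate sum stood at 1093 and 1216 in cluster 7 and at 1283 and 1622 in cluster 16. The part of the mix in the pooled astrocyte-like ratios was not tested. As log2 ratios without subtraction, the AMPA sum was -0.21 in OPC-like, 0.044 in pre-OL-like and -0.42 in astrocyte-like cells, and the kainate sum 0.042, -0.021 and 0.30. With the level of microglia-like cluster 11 subtracted, the AMPA sums became 0.39, 1.25 and 0.24, so that those of OPC-like and astrocyte-like cells reversed, and the kainate sums became 0.45 in OPC-like and 0.33 in pre-OL-like cells. *Gria2* reversed in pre-OL-like (0.22) and inhibitory neuron-like cells (1.09). With the level of all microglia-like cells subtracted, an alternative added after seeing the data, the AMPA sums were -1.62 in OPC-like and -0.39 in pre-OL-like cells and the kainate sums -0.25 and -0.37, and *Grik1* in OPC-like (-0.0059) and *Grik5* in pre-OL-like cells (-0.030) reversed. The share of *Gria2* in OPC-like AMPA UMIs, 46.4% and 37.4%, became 58.3% and 38.9% over cluster 11 and 59.2% and 25.7% over all microglia-like cells. Where subtraction left a level at or below 0 no value was given. In cells with a Y-linked UMI and without *Xist*, the kainate sums were 0.14 in OPC-like, 0.062 in pre-OL-like and 0.38 in astrocyte-like cells. Under the same choice, in inhibitory neuron-like cells *Gria1* (-0.054) reversed to 0.19 and *Grik2* (0.13) to -0.036. That class pools subtypes, and its Adarb2 cells were 143 of 462 in the control and 171 of 387 in the WMI library. Over all cells *Gria1* was higher in the WMI library in Lhx6 (3631 and 4401) and Adarb2 (983 and 1316) and lower in Sst interneuron-like cells (4018 and 3673). The part of the mix in the pooled ratios was not tested. Without barcodes over 1% mitochondrial UMIs the pre-OL-like kainate sum was 0.073. Scaled by the median ratio of all genes, the astrocyte-like sums were -0.52 and 0.20. The AMPA ratio of mature OL-like to OPC-like cells, -1.36 and -1.85, was -1.21 and -1.50 under that scaling and -1.22 and -1.60 with doublets kept. The share of all genes past 1.5-fold, 7.44% in OPC-like and 11.4% in pre-OL-like cells, was 19.6% and 25.02% at a minimum of 20 UMIs and 3.25% and 7.18% at 500. The cause of these shifts was not tested. Resolutions of 0.4 and 1.6, clustering without integration, a minimum of 2000 UMIs and leaving out clusters of 1 library each kept all 54 recomputed values within their counting intervals. Shares of cells with a UMI moved with the depth of thinning for every member, in 53 of 54 values at 2000 UMIs and in 54 without thinning. Members were recomputed for levels in OPC-like cells and for ratios in 4 classes only. No paired analysis was possible because each condition had 1 library, and for the same reason no replicate could be left out.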

Other observations

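Cluster 9, which received no name and took no part in the comparisons, held 67 control and 623 WMI cells. In it *Gria1* stood at 1816 (1722 to 1914) CPM in control and 2132 (2099 to 2166) in WMI cells, above its level in the upper-layer neuron-like cells of both libraries. *Grik2* stood at 1162 (1087 to 1240.4) and 1728 (1697 to 1758), *Grik1* at 71.4 (53.8 to 92.9) and 284 (272 to 297), and *Grik4* at 243 (209 to 280.1) and 178 (169 to 188). The summed AMPA level was 4983 and 5120.4, and the summed kainate level 1772 and 2486.

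Clusters 0 and 2, which belong to the excitatory neuron-like class and came nearly all from the control library, differed in several members. Their control cells had medians of 2886 and 1763 UMIs, against 11142 in upper-layer neuron-like cells, and median mitochondrial shares of 0.033% and 0.278%. The part of depth and barcode quality in the levels below was not tested. *Grik5* stood at 116 (108 to 124) in cluster 0 and 385 (361 to 409.7) in cluster 2, the latter above each of the 8 neuron subtypes. *Grik2* stood at 1137 (1112 to 1162) and 616 (586 to 648), and *Gria4* at 913 (891 to 935) and 601 (572 to 632). *Gria2* was at 1743 (1712 to 1774) and 1773 (1721 to 1825), intervals that overlapped.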
